A study of Mus musculus with 2 samples.

Results

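Tnf, Il6 and Il10 encode secreted cytokines whose messenger RNAs carry AU-rich elements in the 3′UTR, and the positions at which Tia1 was crosslinked to these 3 transcripts were examined. They were taken by name from the 7787 protein-coding mouse genes with at least 1 low-FDR crosslink in an exon. All crosslinks on the gene's own strand within annotated exons were collected, and each was placed relative to the AU-rich pentamers of the 3′UTR. The 3 genes held 78 exonic sites, of which 76 lay in 3′UTRs, out of 322370 sites in the 3′UTRs of all genes.

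The data came from individual-nucleotide resolution crosslinking and immunoprecipitation (iCLIP), in which UV light links a protein to the RNA it touches and each cDNA end marks the linked nucleotide to the base. Primary splenic B cells of C57BL/6 mice were activated for 48 h with 10 µg/ml of lipopolysaccharide (LPS), and Tia1 was recovered from their cytoplasmic extract in 2 replicates of 1 group. No untreated, isotype or other control library was analysed here, so a background level was not measured, and no condition could be compared with another. The immunoprecipitating antibody is labelled as one against Tial1, a related protein, while titles and methods give Tia1; this was not settled, and the protein is called Tia1 throughout.

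AU-rich elements are stretches of overlapping or neighbouring AUUUA pentamers. They shorten the life of many cytokine and early response messengers and limit their translation, and proteins of opposing effect compete for them: Zfp36 recruits the deadenylation machinery, Elavl1 stabilises its targets, and Tia1 is known as a translational silencer of Tnf mRNA in macrophages. Tia1 itself binds uridine-rich RNA and takes part in stress granules, cytoplasmic assemblies of stalled messengers. Tnf is the founding inflammatory cytokine of its superfamily, Il6 supports plasma cell differentiation and the acute phase response, and Il10 restrains inflammation and is a product of activated regulatory B cells.

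The stretches that carried the crosslinks are shown first, because the results turn on where within them the protein was linked. Each is 30 nt of RNA read 5′ to 3′ on GRCm38, with every nucleotide that held a low-FDR site in capitals. A low-FDR site is a position whose 15-nt neighbourhood was more densely crosslinked than in 100 permutations, at a false discovery rate (FDR) under 0.05. The first 2 are from Tnf, on the minus strand at chr17:35199667-35199696 in the AU-rich element and at chr17:35199519-35199548 downstream of it.
Tnf element: UUaUuUauuaUUUaUUUauuugcuUaUgaA
Tnf downstream: uugccuCcucUuUUGcuUaUguUuaaaaca
The next 3 are from Il6, on the plus strand, 2 from the element at chr5:30019675-30019704 and chr5:30019719-30019748 and 1 from the end of the 3′UTR at chr5:30019895-30019924.
Il6 element, first part: AuuUUAauuauUUUUaauuUauugauaauu
Il6 element, second part: uUaaguUaauuUaugauugauaUuUaUuaU
Il6 downstream: uuUUUaaAgaaAucuuugugauguaUUUUu
The last 2 are from the Il10 3′UTR, on the plus strand at chr1:131024487-131024516 and chr1:131024826-131024855.
Il10 main cluster: UacaguauUuauuaUUUUUAaccugugUUU
Il10 last pentamer: uggccaguuuguuaUuUauaaccaccuaaa

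The crosslinks fell on uridines within and beside the pentamers. Of the 22 cDNAs in the Tnf element 15 were inside a pentamer, whereas of the 22 in the Il6 element 14 were before the nearest pentamer, 5 inside it and 3 after it. In Il10, whose pentamers are widely spaced, 8 of 32 cDNAs were before the nearest pentamer, 9 inside and 15 after. Over the 3 genes 90 of 101 3′UTR cDNAs were at a U (89.1%, exact 95% Clopper-Pearson interval 81.3 to 94.4%), against 83.2% of the 3′UTR cDNAs of all genes. Such intervals cover counting error only, and overlap between them does not show that shares are equal.

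**Figure D1:**
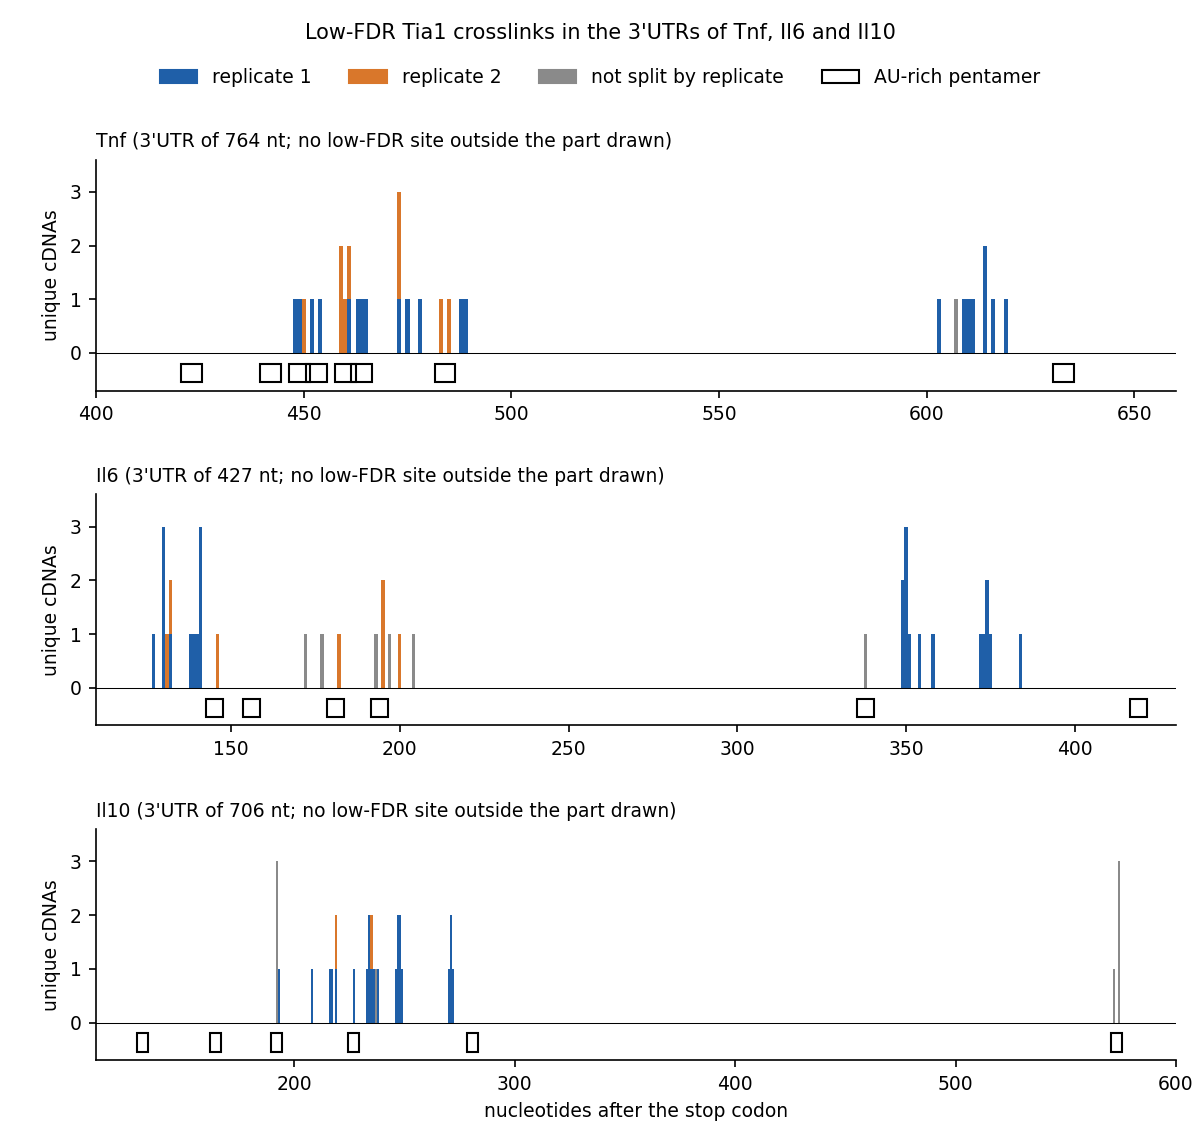
Unique cDNAs at each low-FDR site (vertical axis) against nucleotides after the stop codon (horizontal axis) for Tnf, Il6 (spliced isoform) and Il10, coloured by replicate; grey cDNAs are at sites called in the summed data only and cannot be split, the 2 orange cDNAs of Il10 were below the calling of replicate 2, and open boxes mark AUUUA pentamers. No site holds more than 3 cDNAs, and the downstream clusters of Tnf and Il6 hold no cDNA called in replicate 2.

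The 3 transcripts were modestly covered. Tnf held 31 unique cDNAs at 26 3′UTR sites, Il6 38 at 28 sites and Il10 32 at 22 sites, and 57 of the 76 sites rested on 1 cDNA. Per kb of the longest annotated 3′UTR this was 40.6 cDNAs for Tnf, 22.8 for Il6 and 45.3 for Il10, all under the median of 56.2 per kb over the 4131 genes with at least 20 3′UTR cDNAs. The value of Il6 depends on the isoform: its longest 3′UTR, 1668 nt at chr5:30018314-30019981, belongs to an isoform that retains an intron, and over the 427 nt of the spliced isoform (chr5:30019549-30019975), which held all 38 cDNAs, it was 88.99 per kb. The level of each mRNA was not measured in these libraries, so a low count cannot be told apart from few transcripts.

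The replicates differed in depth, with 639108 cDNAs at low-FDR sites in replicate 1 and 165081 in replicate 2. Sites were called in each replicate alone and in the sum of both. Tnf had 21 cDNAs at sites called in replicate 1 and 9 in replicate 2, Il6 had 25 and 7, and Il10 had 22 and 0. Thus all 3 genes had a called 3′UTR site in replicate 1, beside 85.9% of the 7787 background genes, and 2 of the 3 had one in replicate 2, beside 61.2%. Those 2, Tnf and Il6, were called in both, beside 59.2% of the background. With at least 10 cDNAs required in each replicate, neither stayed, since Tnf had 9 and Il6 7 in replicate 2, and 32% of the background genes met this. Only 3 single positions were called in both replicates, 2 in Tnf and 1 in Il6, where 15.3% of all 3′UTR sites were. A site with 1 cDNA cannot be called in both. Of the 76 sites 57 had 1 cDNA, beside 62.9% of all 3′UTR sites, so this overlap is bound to the low counts. The count of 0 for Il10 was a matter of calling in part: 2 of its pooled cDNAs belonged to replicate 2 but were below that replicate's threshold, and 8 more could not be split, so that replicate 2 held between 2 and 10.

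Replicate 2 gave 30% of the called cDNAs of Tnf (interval 14.7 to 49.4%) and 21.9% of those of Il6 (9.28 to 39.97%). Over the 3′UTRs of all genes it gave 21.01%, which lies within both intervals. For Il10 0 of 22 called cDNAs allows a share of up to 13.6%, below that value. With the 2 cDNAs under the calling the share was 8.33% (1.03 to 26.997%), but the 21.01% of all genes counts called cDNAs only. On called cDNAs the share of Il10 was thus below that of all genes, and with cDNAs under the calling no like value of all genes was taken. Whether Il10 differed from other genes between the replicates was not settled.

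Tnf carried the densest pentamer run of the 3. Its 3′UTR is 764 nt long, at chr17:35199381-35200144, and 7 of its 8 AUUUA pentamers formed 1 run from nt 421 to nt 486 after the stop codon (chr17:35199659-35199724); of the longest 3′UTRs of 21028 genes, 0.185% held a run of 7 or more pentamers no more than 20 nt apart. With 15 nt on either side this element covered 12.6% of the 3′UTR and 20.2% of its uridines, and it held 22 of the 31 cDNAs (71.0%, 52.0 to 85.8%). Both the length share and the uridine share were outside the interval.

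Within the element the crosslinks of Tnf were confined to nt 448 to 489, and the first 2 pentamers, at nt 421 and nt 440, held no low-FDR cDNA. The highest site, nt 473 in the short spacer before the last pentamer of the run, had 3 cDNAs, 1 from replicate 1 and 2 from replicate 2. Counting strictly inside pentamers, 15 of the 31 cDNAs were there (48.4%), on 4.97% of the length. Tnf was also the 1 member with the nonamer UUAUUUAUU, the preferred site of Zfp36, which contains the pentamer: it had 5 overlapping or neighbouring copies, and 7.66% of all 3′UTRs had any. In total 61.3% of the Tnf cDNAs were within 15 nt of a nonamer, against 0.758% of the 3′UTR cDNAs of all genes, on 0.232% of their length. The share of the Tnf 3′UTR length near a nonamer was not taken. This contrast therefore cannot be told apart from the number of nonamers in Tnf.

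A second Tnf cluster of 8 sites and 9 cDNAs lay at nt 603 to 619, on a pyrimidine-rich stretch with no pentamer of its own, just before the eighth AUUUA at nt 631. It came from replicate 1, with 8 cDNAs called there, none called in replicate 2 and 1 not split. All 9 cDNAs called in replicate 2 were in the element, against 13 of 21 in replicate 1 (61.9%, 38.4 to 81.9%), and the interval of replicate 2 (66.4 to 100%) overlapped that of replicate 1. The constitutive decay element, the stem-loop bound by Roquin proteins, lies between the clusters. Its sequence UUCUGUGAA, which 2.33% of 3′UTRs contain, starts at nt 549 (chr17:35199588-35199596). It had 0 low-FDR cDNAs within 15 nt, and 1 cDNA before FDR filtering.

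The element of Il6 was shorter and the crosslinks were placed differently in it. Its 4 pentamers ran from nt 143 to nt 196 of the spliced isoform (chr5:30019691-30019744), and 0.956% of the 3′UTRs of all genes had a run of at least 4. With its flanks it covered 19.7% of the spliced 3′UTR and 25.7% of its uridines, and 5.04% of the longest 3′UTR. It held 22 of 38 cDNAs (57.9%, 40.8 to 73.7%), but 7 of these 22 were between the first and the last pentamer and the others were in the flanks. The sites upstream, between nt 130 and nt 141, included both of the positions in this region with 3 cDNAs, nt 130 and nt 141, each from replicate 1 alone. Without the 15-nt flanks the share of Il6 was 18.4% (7.74 to 34.3%), and the 12.6% of the spliced 3′UTR and 14.5% of its uridines that this core covers were inside the interval. For Il6 the excess in the element was therefore seen only with the 15-nt flanks counted, and a reason for it was not tested.

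Il6 had a second cluster too, 15 cDNAs at 11 sites from nt 338 to 384, close to the end of the transcript. It starts in the fifth pentamer of the spliced 3′UTR, at nt 336, and ends before the sixth, at nt 417. As in Tnf the downstream cluster was seen in replicate 1, with 14 cDNAs called, and none was called in replicate 2. All 7 cDNAs called in replicate 2 were in the element, against 10 of 25 in replicate 1 (40%, 21.1 to 61.3%); the interval of replicate 2 was 59.04 to 100%, and the 2 intervals overlapped by a small margin. Il6 also had 2 sites with 3 cDNAs in the coding end of the intron-retaining isoform, 151 nt beyond exon 4 of the spliced one; all 3 were from replicate 1.

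Il10 had no compact element. Its 6 pentamers were too far apart to chain at 20 nt, so by the rule used for the others its element was a single pentamer at nt 129, with 0 of 32 cDNAs (a share of up to 9.38%). When pentamers up to 50 nt apart were joined, 5 formed a stretch from nt 129 to nt 283 (chr1:131024397-131024551), which with its flanks covered 26.2% of the 706-nt 3′UTR (chr1:131024269-131024974) and 32.5% of its uridines. This stretch held 28 of 32 cDNAs (87.5%, 71.0 to 96.5%), including all 22 called in replicate 1. They formed 1 cluster from nt 192 to nt 272, and the first 2 pentamers, at nt 129 and nt 162, were without a low-FDR cDNA.

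The remaining 4 Il10 cDNAs were inside the isolated last pentamer at nt 571, at 2 sites that were called in neither replicate alone. Their replicate is therefore unknown. The nucleotides around the Il10 sites were less rich in uridine than those of the other 2 genes. The mean U content in 31 nt, weighted by cDNAs, was 44.6%, against 56.6% for Tnf and 53.4% for Il6. The median of 4127 genes with at least 20 3′UTR cDNAs was 46.6%.

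Distance to the nearest pentamer gave a measure that did not depend on how runs were joined. Within 15 nt of an AUUUA were 24 of 31 cDNAs of Tnf (77.4%, 58.9 to 90.4%), 30 of 38 of Il6 (78.9%, 62.7 to 90.4%) and 26 of 32 of Il10 (81.3%, 63.6 to 92.8%). The 3 shares did not differ beyond their intervals. Their lengths within that distance were 17.1% for Tnf, 33.96% for Il6 on the spliced isoform (17.4% on the longest 3′UTR) and 28.5% for Il10, and their uridines 25.9%, 39.7% and 34.6%. Each share of cDNAs was above the share of length and of uridines, with neither inside its interval. In replicate 1 the 3 genes together had 48 of 68 called cDNAs within 15 nt (70.6%, 58.3 to 81.0%). In replicate 2 it was 16 of 16, an interval of 79.4 to 100% that overlapped the first. Il10 gave 16 of 22 in replicate 1 and had no called cDNA in replicate 2. The shares of the replicates are thus not over the same genes.

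**Figure D2:**
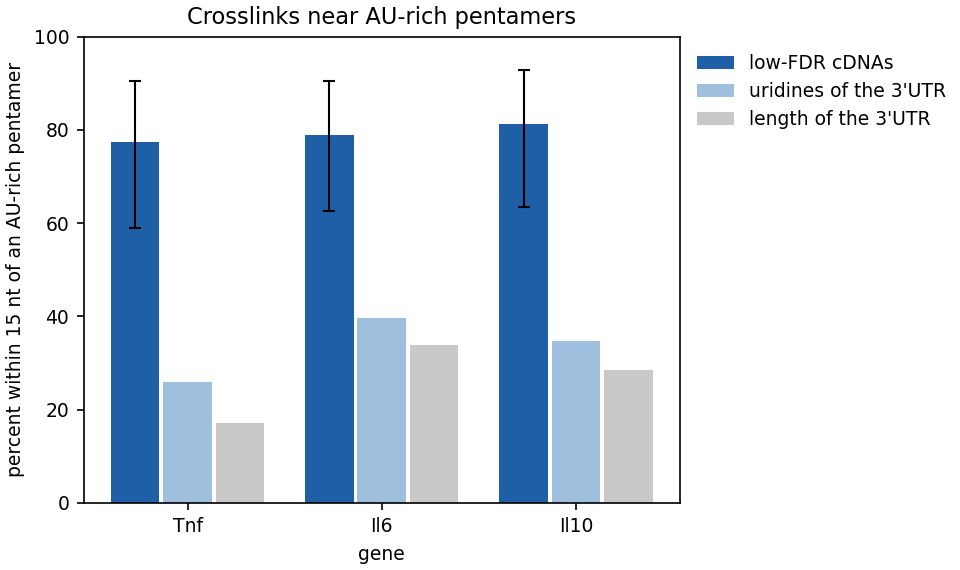
Percent within 15 nt of an AUUUA pentamer (vertical axis) for the low-FDR cDNAs, the uridines and the length of the 3′UTR (for Il6 of the spliced isoform) of each gene (horizontal axis); error bars are exact 95% Clopper-Pearson intervals over 31, 38 and 32 cDNAs. The cDNA bars stand at 77.4, 78.9 and 81.3%, and their intervals stay above the other bars.

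Placement inside the pentamer was described by shares and intervals, and a difference between the 3 genes was not tested. Inside an AUUUA were 15 of 31 cDNAs of Tnf (48.4%, 30.2 to 66.9%), 6 of 38 of Il6 (15.8%, 6.02 to 31.3%) and 9 of 32 of Il10 (28.1%, 13.7 to 46.7%), on 4.97%, 7.03% and 4.25% of the length of the 3′UTR, for Il6 that of the spliced isoform. The intervals overlapped, those of Tnf and Il6 by a small margin. Within 30 nt of a pentamer were all cDNAs of Tnf and Il10 and 84.2% of those of Il6.

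Set beside all genes, the members ranked high for cDNAs near a pentamer, and less high once the length near pentamers was allowed for. AUUUA is common: 65.2% of the 21028 longest 3′UTRs contain it, and over all genes 13.9% of 3′UTR cDNAs were within 15 nt of 1, on 6.31% of the length. Among the 4131 genes with at least 20 cDNAs the median share near a pentamer was 8.62%, and Tnf, Il6 and Il10 were at percentiles 98.2, 98.5 and 98.9. They were also at percentiles 99.5, 96.5 and 99.1 for pentamers per kb, which the choice of AU-rich transcripts favours. The share of cDNAs divided by the share of length near a pentamer was 4.52 for Tnf, 4.53 for Il6 on its longest 3′UTR and 2.85 for Il10, at percentiles 84.0, 84.1 and 70.7 of the 3448 genes with a value, whose median was 1.58. On the spliced 3′UTR of Il6, which holds all its cDNAs, the ratio was 2.32, at percentile 62.7. For that percentile the other genes kept their longest 3′UTR. Relative to the length near pentamers the 3 genes were thus above the median but not at the end of the range.

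**Figure D3:**
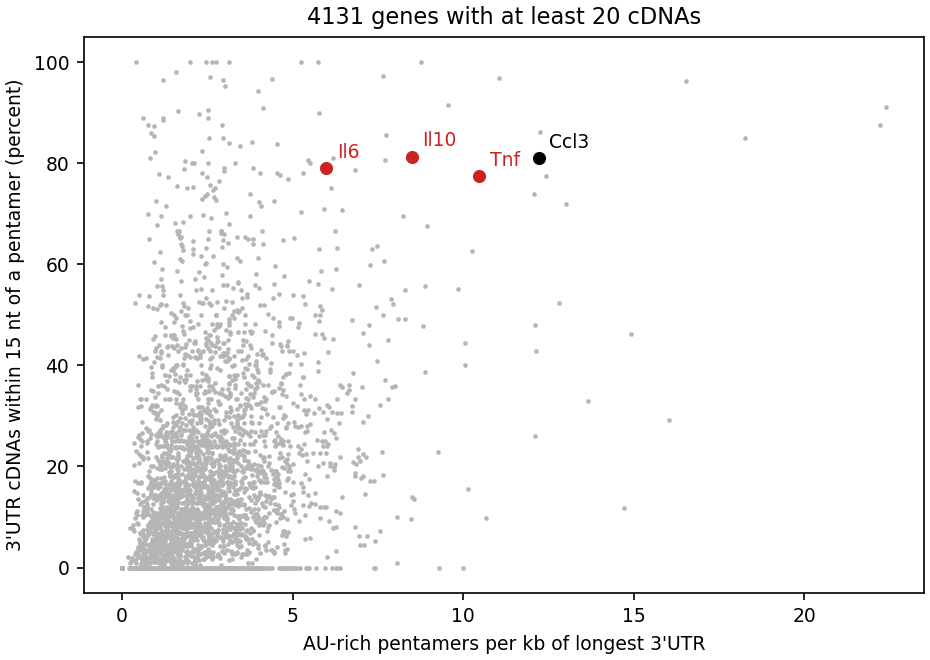
Share of 3′UTR cDNAs within 15 nt of an AUUUA pentamer (vertical axis, percent) against pentamers per kb of the longest 3′UTR (horizontal axis) for 4131 genes with at least 20 cDNAs, 1 point a gene. Tnf, Il6 and Il10 (red) and the chemokine gene Ccl3 (black) lie at 77.4 to 81.3%, with 5.995 to 12.2 pentamers per kb.

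The genes most like each member were ranked by 3 measures, cDNAs per kb, pentamers per kb and the share of cDNAs near a pentamer, over those 4131 genes, as the sum of differences in percentile. Tnf and Il10 were each other's nearest gene, with a sum of 4.15. Ccl3, which encodes a chemokine released by activated B cells and macrophages, came second for Il10 (4.44) and was also among the nearest of Tnf (7.70); 81.0% of its 21 cDNAs were near a pentamer. Erich1 (6.33) for Tnf and Slf1 (7.13) for Il10 completed the nearest genes. The neighbours of Il6 depended on the isoform. With the longest 3′UTR they were Aasdhppt (6.44), Btbd10 (9.45) and Cacybp (11.7). With the spliced 3′UTR of Il6 (14.1 pentamers per kb) they were Ran (5.98), Oip5 (6.49) and Ufd1 (6.85), while the other genes kept their longest 3′UTR.

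Without the FDR filter the crosslinks remained largely in the 3′UTRs. The unfiltered sum of both replicates had 45 cDNAs in the 3′UTR of Tnf, 2 in its coding sequence, 1 in the 5′UTR and none in introns. Il6 had 48 in the 3′UTR, 11 in coding sequence and 5 in introns, and Il10 had 41 in the 3′UTR, 2 in coding sequence and 21 in introns. On the opposite strand there were 0 cDNAs at Tnf and Il6 and 3 at Il10. Near pentamers were 62.2% of the unfiltered 3′UTR cDNAs of Tnf, 64.6% of Il6 and 70.7% of Il10, each lower than after filtering and within the intervals given above. Filtering keeps positions whose neighbours are also crosslinked.

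**Figure D4:**
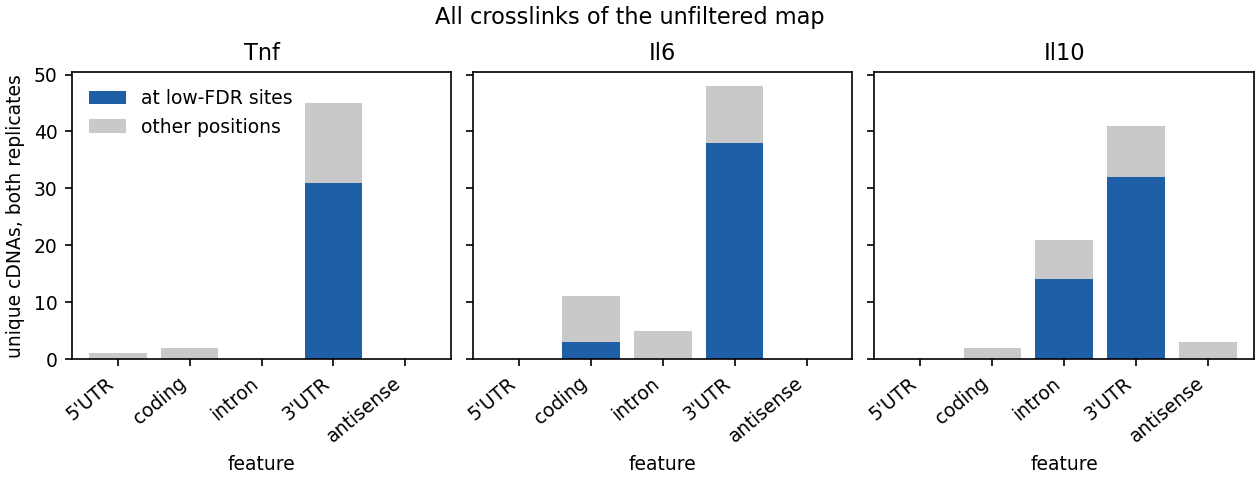
Unique cDNAs of the unfiltered sum of both replicates (vertical axis) by feature of Tnf, Il6 and Il10 (horizontal axis; antisense is the opposite strand), divided into those at low-FDR sites and those at other positions. The 3′UTR bars reach 45, 48 and 41 cDNAs. By these features of the introns that of Il10 alone holds low-FDR sites, with 14 cDNAs. The 3 low-FDR cDNAs in the coding bar of Il6 are coding in the intron-retaining isoform and intronic in the spliced one.

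Crosslinks were also found on other cytokine messengers. Of a list of 34 cytokine and chemokine genes that includes the 3 members, 11 had a low-FDR cDNA in an exon (32.4%). The members were taken from genes with such a cDNA, and without them it was 8 of 31 (25.8%). Over all protein-coding genes it was 35.5%. The median of the 11 was 21 3′UTR cDNAs, beside 24 over all background genes. Counts of cDNAs in this and the following lists are per gene and not per length. In both replicates 4 of the 11 had a called 3′UTR site (36.4%, beside 59.2% of the background): Tnf, Il6, Il12a (60 cDNAs in replicate 1 and 10 in replicate 2) and Il16 (41 and 17). Il12a, a subunit of interleukin-12 and interleukin-35, resembled the members, since 74.0% of its cDNAs were near 1 of its 6 pentamers. Il16 had no pentamer at all, so a pentamer was not a feature of every crosslinked cytokine transcript. Ebi3, the partner of Il12a in interleukin-35, had 20 and 0. No exonic low-FDR cDNA was found for 23 genes of the list, among them Il1b, Il2 and Cxcl2, whose 3′UTRs hold 4, 7 and 11 pentamers. The level of these mRNAs was not measured, so a lack of crosslinks cannot be told apart from few or no transcripts.

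**Figure D5:**
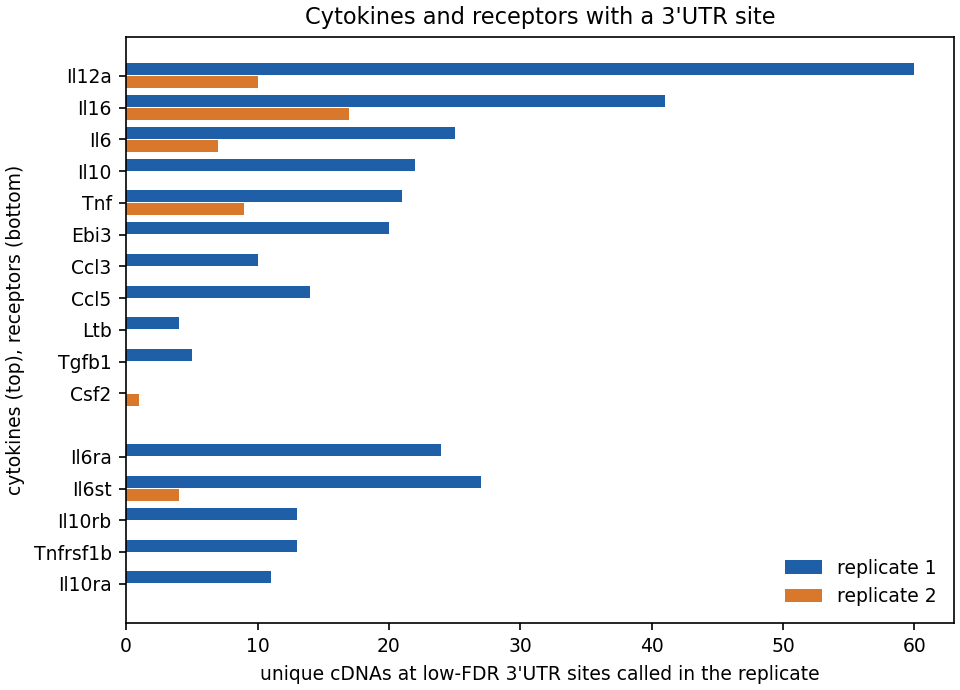
Unique cDNAs at 3′UTR sites called in replicate 1 and in replicate 2 (horizontal axis) for the listed cytokines and for receptors of Tnf, Il6 and Il10 that had a 3′UTR site (vertical axis). Il12a, with 60 and 10, has the longest bar, and 1 of 5 receptors, Il6st, has a bar for replicate 2.

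Receptors of the 3 cytokines gave 1 of 5 genes with sites called in both replicates (20%, beside 59.2% of the background). Il6st, the signal-transducing subunit gp130, had 27 and 4 cDNAs, while Il6ra, the ligand-binding subunit, had 24 and 0. Both had few cDNAs near a pentamer, 11.8% and 0%. Il10rb, Tnfrsf1b and Il10ra had 13, 13 and 11 cDNAs in replicate 1 and 0 in replicate 2, and Tnfrsf1a had none.

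Of the genes that process or carry the signals of these cytokines 11 of 16 were called in both replicates (68.8%, near the 59.2% of the background). Stat3, the transcription factor downstream of the Il6 and Il10 receptors, had 360 and 74 cDNAs and Jak1 308 and 90. Tnfaip3, an inhibitor of the Tnf signal, had 212 and 81, and Jak2 had 140 and 28. Socs3, the feedback inhibitor of Il6 signalling, had 69 and 6, and 75.0% of its cDNAs were near a pentamer, a share close to that of the members. In the other genes named here the share was lower, with 30.9% in Tnfaip3, 23.3% in Jak1, 4.89% in Stat3 and 3.35% in Jak2.

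All 15 listed regulators of AU-rich messengers had sites called in both replicates, beside 59.2% of the background. Zfp36l1 had 924 and 351 cDNAs, Elavl1 635 and 180, Hnrnpd 408 and 132, Khsrp 336 and 116 and Rc3h1, which encodes Roquin-1, 366 and 63. The share of cDNAs near a pentamer ran from 0% in Hnrnpd to 20.1% in Zfp36l1 among these 5, around the 13.9% of all genes, and over the whole list up to 41.1% in Zc3h12a. Of 24 other AU-rich early response transcripts 19 were in the background and 13 were called in both replicates (68.4%, near the 59.2% of the background), among them Myc (1128 and 484) and Ccnd2 (1042 and 271). The share of cDNAs near a pentamer varied widely in this list. It was 80% in Nr4a1, 64.02% in Junb, 50.5% in Mcl1 and 50.2% in Myc. In others it was under the 13.9% of all genes, with 10.2% in Irf4, 2.77% in Pim1, 1.26% in Ccnd2 and 0% in Jun and Egr1.

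Markers of cell types were set beside the label of the cells. Their counts are of Tia1 crosslinks and not of mRNA, so a count of 0 does not show that a cell type was absent. All 7 of the B cell markers that could be counted had 3′UTR cDNAs, among them Pax5 (1475 and 301) and Ms4a1 (776 and 198), and 6 were called in both replicates, 85.7% beside 59.2% of the background. Of 12 myeloid markers 4 had cDNAs, 30 in replicate 1 and 6 in replicate 2 in all, mostly on Itgam (17 and 4) and Lyz2 (12 and 2), and Csf1r, Cd14, Cd68, Mpo, S100a8, S100a9, Fcgr1 and Itgax were at 0. Myeloid cells are also known to make Tnf, Il6 and Il10, and the part of such cells in the counts of the members was not tested. T cell markers gave 4 cDNAs, all on Cd3e, NK cell markers gave 0 and erythroid markers 28, all on Hbb-bt.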

How the data were processed

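The authors demultiplexed the reads, collapsed PCR duplicates by random barcode bases and mapped the rest to mm9 with Ensembl annotation in the iCount pipeline; Bowtie is named in the submitters' processing notes, with its version not given in the sources used here. The treatment of reads with several matches is likewise not given in those sources. Each deposited value is a count of the unique cDNAs at 1 nucleotide, signed by strand and unscaled: low-FDR sites of each replicate (342732 and 93512), low-FDR sites of their sum (422150 sites, 867271 cDNAs, also lifted to mm10 by the authors) and all crosslinks of the sum (1582633 cDNAs). The depth of each replicate before calling is unknown. Labels and methods differ in UV dose and RNase amount.

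Absolute values were used. Sites were assigned with GENCODE M21 on GRCm38 to protein-coding transcripts, coding sequence before 3′UTR, and sites shared by genes were left out. The mm9 and mm10 lists were paired by row, and strand and count matched in all 422150 rows. Unfiltered crosslinks were read by distance from the paired sites, with no conversion of coordinates. AUUUA was searched on the transcript strand only. Elements were runs of AUUUA no more than 20 nt apart with 15 nt on either side. Sequences are those of the RefSeq GRCm38 assembly. Percentiles and intervals are descriptions: with 1 group of 2 samples no test between groups exists, and whether the replicates came from separate animals is not labelled. The members, lists, markers and rules were chosen with earlier results of these data known. From each list up to 5 genes with the most cDNAs were named; Ebi3, Ccl3 (also a nearest gene), Socs3, Ran, Oip5, Ufd1 and genes given for their pentamers were added after their values were seen. Ighm and Trac are not annotated as protein-coding and were not counted. Functions for runs, distances and positions were tested on simulated 3′UTRs. Python 3.11.15, numpy 2.4.6, scipy 1.17.1 and samtools 1.23.1 were used.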

Additional observations from a re-analysis of the deposited data

Results flagged for a closer look

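Il10 carried crosslinks in a region outside the 3′UTR comparison. A cluster of 7 low-FDR sites with 14 cDNAs lay in its last intron at chr1:131023926-131023943, 233 nt before the last exon and outside the exons annotated there. Replicate 1 gave 10 of them and replicate 2 gave 4, and 3 sites were called in both replicates, whereas no 3′UTR site of Il10 was called in replicate 2. The stretch at chr1:131023920-131023949 is shown with crosslinked nucleotides in capitals.
Il10 intron: agcgucUuGuuGuUUaaAuaaacUucuugu
It contains no AUUUA. It was singled out as a signal in sites that the main comparison did not use, and no control library was analysed here to set a background for it.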

How the results depend on the processing

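Of 106 alternative values for 22 results, 82 stayed within a set limit and 24 did not. The limit was 1.5 times a count, and for a share the spread between replicates. Where the replicates gave no such spread, for Il10 and for the shares of replicate 2, it was the exact interval of the share. Shares on the spliced Il6 isoform had to be equal. Sites with at least 2 cDNAs left 9 cDNAs for Tnf, 17 for Il6 and 18 for Il10. Leaving out a replicate gave 9 to 21 cDNAs for Tnf, 7 to 25 for Il6 and 0 to 22 for Il10; element shares of 61.9 to 100% for Tnf, 40 to 100% for Il6 and 0% for Il10; shares near a pentamer of 71.4 to 100%, 68.0 to 100% and 72.7%. Il10 has no value without replicate 1, since no site was called in replicate 2. Joining pentamers up to 50 nt apart gave 87.5% for Il10, because a longer stretch is counted; joining at 10 nt gave 58.1% for Tnf and 23.7% for Il6, and leaving out the flanks gave 18.4% for Il6. Both Il6 values are far below 57.9% and outside its interval, and are among the 82 only because the replicates of Il6 differ so widely. Counting inside the pentamer gave 48.4% for Tnf, 15.8% for Il6 and 28.1% for Il10, and a distance of 30 nt gave 100% for Tnf and Il10. UUAUUUAUU in place of AUUUA gave 0% for Il6 and Il10, which lack it. The spliced Il6 isoform, an alternative chosen after seeing the data, cannot change the shares of cDNAs, since all lie in it, but it moved the length near a pentamer from 17.4 to 33.96% and the ratio to length from 4.53 to 2.32.

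At least 10 cDNAs in each replicate left 2 cytokines, Il12a and Il16 and none of the members, 0 receptors, 0 myeloid and 0 erythroid markers. With 1 replicate left out the genes called were 5 to 10 cytokines, 1 to 5 receptors, 11 to 15 signalling genes, 15 regulators, 13 to 19 early response genes, 6 to 7 B cell, 2 to 3 myeloid, 0 to 1 T cell, 0 NK cell and 1 erythroid markers. No paired analysis was possible because the series has a single group. Depth limits all of this: 31 to 38 cDNAs a gene leave wide intervals on each share.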
